A study of Mus musculus with 5 samples.

Results

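Dppa2 and Dppa4 are neighbouring genes on mouse chromosome 16 that lie on the upstream side of the bait of a 4C-seq experiment. They were chosen by name, as the 2 genes after which the bait domain is called. Their values come from the 5-kb windows that overlap each gene or the 5 kb on either side of it. That gave 8 windows out of 545079 in the table, 5 for Dppa4 and 3 for Dppa2, and the genes are 2 of 679 protein-coding genes of the chromosome.

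Both genes encode small SAP-domain proteins that bind chromatin as partners. They are switched on in pluripotent and early germ cells and silent in most other tissues. In embryonic stem cells they are known for keeping developmental promoters in a poised state and for activating genes of the early embryo such as Dux and Zscan4. The domain that holds them replicates early in embryonic stem cells and late after neural differentiation, which makes it a model for control of replication timing in cis. 4C-seq reads out which DNA was ligated to a chosen viewpoint after fixation, so a high value means frequent proximity to the bait and says nothing of RNA. The cell type could therefore not be checked against marker genes.

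The values belong to 2 embryonic stem cell clones of a Cas/129 hybrid line, A6 and E2, grown in medium with 2i and LIF. Both carry CRISPR deletions of the same 3 labelled intervals, so both groups compared here, the 129 and the CAST (Mus castaneus) chromosome, come from edited cells. The column headers call the 129 allele svim. The labels do not name the deleted allele, and no hybrid clone without the deletions was analysed here. In the windows of intervals 2 and 3, 129 made up at most 0.367% of the reads of either clone, so strain and deletion cannot be told apart. The window from 48435001, at the end of interval 2, was an exception, with 19 reads of 129 in A6 and 22 in E2 beside 12 and 6 of CAST. It runs to 48440000, past the end of interval 2 at 48437301, so these reads may lie outside the interval. The alleles of a clone share a library. With 2 clones the p-values measure only the spread between these clones, which the tests share in part or in full across genes. The other 3 samples of the series are inbred lines with another bait and genome build and were not used here.

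The bait sequences listed for both clones are shown because both genes were measured against a bait. They are read 5′ to 3′ from the sample labels, and the capitals mark 4 bases at the 3′ end of the forward primer that equal the start of AAGCTT, the recognition site of HindIII, the first enzyme used.
Forward: tttgggattttggagtgAAGC
Reverse: ctgctggacttgtcaactgaa
Neither primer contains GATC, the site of the second enzyme, DpnII. The protocol names a different primer pair, on vector sequence, so which pair was used is not settled, and the bait was placed here only by the gap of 50 kb without windows, from 48320001 to 48370000 (mm10). Dppa2 (gene ID 73703, chromosome 16, 48310274 to 48319513) ends 488 bp before that gap, so the last of its 4 windows lies inside it. Dppa4 (gene ID 73693, 48283735 to 48294292) ends 25.7 kb before the gap, and 16.0 kb separate the genes. The first labelled interval (48308399 to 48311882) covers 1609 bp of Dppa2, which is 17.4% of the annotated gene.

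Each deposited value is the mean RPM (reads per 1000000 reads of the column) of 30 neighbouring windows, so the reads of single windows were recovered by undoing that mean. The columns held 1311580 to 2397572 recovered reads, of which 23.7 to 24.7% lay on chromosome 16. The RPM scale of the deposited values rests on totals that are larger by 23158 reads for 129 and 9425 for CAST in A6, and by 25607 and 10021 in E2. The window positions were checked in RefSeq promoters of 300 bases (GRCm38.p6): windows at promoters with AAGCTT held reads in 17.4% of cases against 10.1% at promoters without it. One window to the side, these shares were 10.8 to 11.4% and 11.1 to 11.4%.

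Both genes stood among the highest of the chromosome in the deposited values. In clone A6, Dppa4 was at 447 RPM for 129 against 404 for CAST, and in clone E2 at 484 against 497. Dppa2 was at 353 against 483 in A6 and at 393 against 646 in E2. The alleles of Dppa4 overlapped, while both CAST values of Dppa2 lay above both of its 129 values. Of the 598 genes of chromosome 16 with a mean of at least 1 RPM, 31.3% also had both 129 values below both CAST values. Dppa4 ranked 4 to 5 among the 679 genes in each of the 4 columns, and Dppa2 ranked 7 and 6 on 129 and 3 and 2 on CAST. The median gene was at 4.11 to 4.92 RPM. These ranks are of running means of genes that end 0.488 kb (Dppa2) and 25.7 kb (Dppa4) from the bait gap. The windows of Dppa2 itself held 3 reads over all 4 columns.

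**Figure D1:**
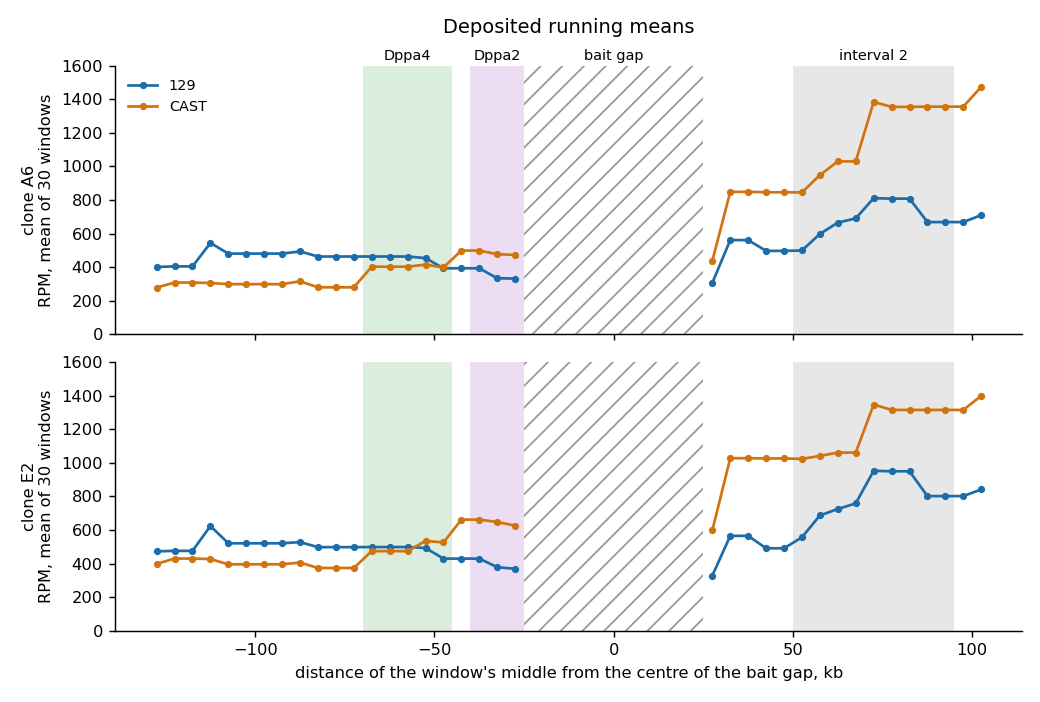
Deposited running means (RPM, y axis) by distance of the window from the centre of the bait gap (kb, x axis), in clone A6 (top) and clone E2 (bottom), with 129 in blue and CAST in orange and the windows of each gene, the bait gap and interval 2 shaded. The alleles cross within the windows of Dppa4, in the gene body in E2 and in its flank in A6, and CAST is the higher allele over all windows of Dppa2.

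The allele difference was tested with limma over those 598 genes, on log2(RPM + 1) with the clone as a block. The log2 ratio of 129 over CAST was -0.58 for Dppa2 (limma SE 0.61, Benjamini-Hochberg adjusted p = 0.53) and 0.05 for Dppa4 (SE 0.61, adjusted p = 0.96). Neither gene passed the threshold of 0.05, which 20.9% of the genes tested did and which 11.7% passed in the direction of CAST. limma used 1 spread for all genes, so these SEs and p-values do not measure the spread of either gene alone. Between the clones the ratio of Dppa2 was -0.58 ± 0.19 (SD, n = 2) and that of Dppa4 0.05 ± 0.13, both without a pseudocount. The median ratio of all genes tested was -0.06.

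In the deposited values the genes were ordered in opposite ways on the alleles. On 129, Dppa4 was above Dppa2 by a log2 of 0.34 in A6 and 0.30 in E2. On CAST, Dppa4 was below Dppa2, by -0.26 in A6 and -0.38 in E2. The order was the same in both clones, and with 2 clones the difference of 0.32 ± 0.03 against -0.32 ± 0.09 (SD, n = 2) was not tested. The running means of the 2 genes share most of their windows. In each column, the windows of both genes, between them and just after the gap supplied equal amounts to both. The order thus rests on the windows upstream of Dppa4 and of interval 2 that each mean takes in, and not on reads of Dppa2 itself.

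Within Dppa4 the deposited ratio changed from window to window towards the bait. It was 0.14 ± 0.09 (SD, n = 2) in the 3 windows from 48275001 to 48290000, 0.01 ± 0.17 in the next and -0.15 ± 0.19 in the last, up to 48300000. In Dppa2 it was -0.48 ± 0.20 in the window from 48305001, -0.64 ± 0.18 in the window from 48310001 and -0.64 ± 0.18 in the window from 48315001. Neighbouring windows share nearly all of the windows they average, so these steps are not independent. From each window to the next, the mean takes in another window of interval 2 and drops another upstream of Dppa4. The steps therefore come from reads outside both genes.

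The reads of the windows themselves gave another picture, with almost none at Dppa2 and a mix of directions at Dppa4. For Dppa2, clone A6 gave 1 read of 129 against 2 of CAST, all in the window from 48310001 to 48315000, and clone E2 gave 0 of either. A count of 0 in E2 allows up to 1.25 RPM on 129 and 1.87 on CAST, by the limit of 3 reads and for counting error only. Whether these windows hold HindIII sites, or strain differences that assign a read to an allele, was not checked. These limits apply only if they do, and few reads here do not show that contact was absent. No allele ratio was computed for Dppa2 from its own reads. These counts do not show whether the first labelled interval was missing from either allele, since CAST had next to no reads there as well. Reads fell in 1 of the 3 windows of Dppa2 and in 3 of the 5 of Dppa4, against 24.9% of the 19632 windows of chromosome 16. On the other side of the gap, the 15 kb from 48370001 to 48385000 gave 757 reads of 129 in A6, with 679 of CAST, and 526 in E2, with 504.

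For Dppa4, clone A6 gave 1879 reads of 129 against 3307 of CAST, and clone E2 gave 2911 against 4095. Clone A6 thus had 36.2% of its Dppa4 reads from 129 (Wilson 95% limits 34.9 and 37.6%), and clone E2 had 41.6% (40.4 and 42.7%). Both lay below the 59.6% and 59.9% over all reads of these clones. The limits cover counting error only, and the shares depended on the windows taken. In A6 and E2 they were 45.8% and 53.4% without flanks, and 78.3% and 68.0% with 25 kb on each side. Scaled to the recovered reads of each column, Dppa4 summed to 970 and 1214 RPM for 129 and to 2521 and 2554 for CAST. The log2 ratio of A6 was -1.38 and that of E2 -1.07, a mean of -1.23 ± 0.22 (SD, n = 2). Both 129 values lay below both CAST values, as they did for 35.5% of the 453 genes with at least 10 reads. edgeR's quasi-likelihood test on these reads gave a log2 of -0.88 for Dppa4 with TMM scaling (Benjamini-Hochberg adjusted p = 0.028). It called 14.6% of genes lower on 129 and 40.2% in either direction. Scaled to library totals without TMM, edgeR gave -1.23 (adjusted p = 0.000157) and called 22.3% of genes lower and 48.1% in all. The median of all genes was 0.19 in the first fit and -0.16 in the second, and relative to it Dppa4 was at -1.06 in both. limma with the running mean undone gave -1.23 (adjusted p = 0.21) and called 8.2% of genes lower and 16.6% in all, so the call at Dppa4 depended on the test.

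The 3 windows of Dppa4 with reads did not share a direction, while each kept its own in both clones. How many windows of the chromosome kept a direction in both clones is not given here, so this is not a trait particular to Dppa4. In the flanking window from 48275001 to 48280000 A6 gave 236 reads of 129 against 1361 of CAST, and E2 gave 182 against 1709. The window from 48285001 to 48290000, inside the gene body, gave 1458 in A6, against 771, and 2512 in E2, against 830. The next window, from 48290001 to 48295000, which covers one end of the gene, gave 185 in A6, against 1175, and 217 in E2, against 1556. The log2 ratios of the outer windows were -3.45 ± 0.51 (SD, n = 2) and -3.33 ± 0.14, and that of the middle window was 0.69 ± 0.47. The signal of Dppa4 was therefore higher on CAST in 2 of its windows and higher on 129 in the window between them. Over the gene body without flanks the ratio was -0.60 ± 0.30, from 1643 reads of 129 against 1946 of CAST in A6 and 2729 against 2386 in E2.

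**Figure D2:**
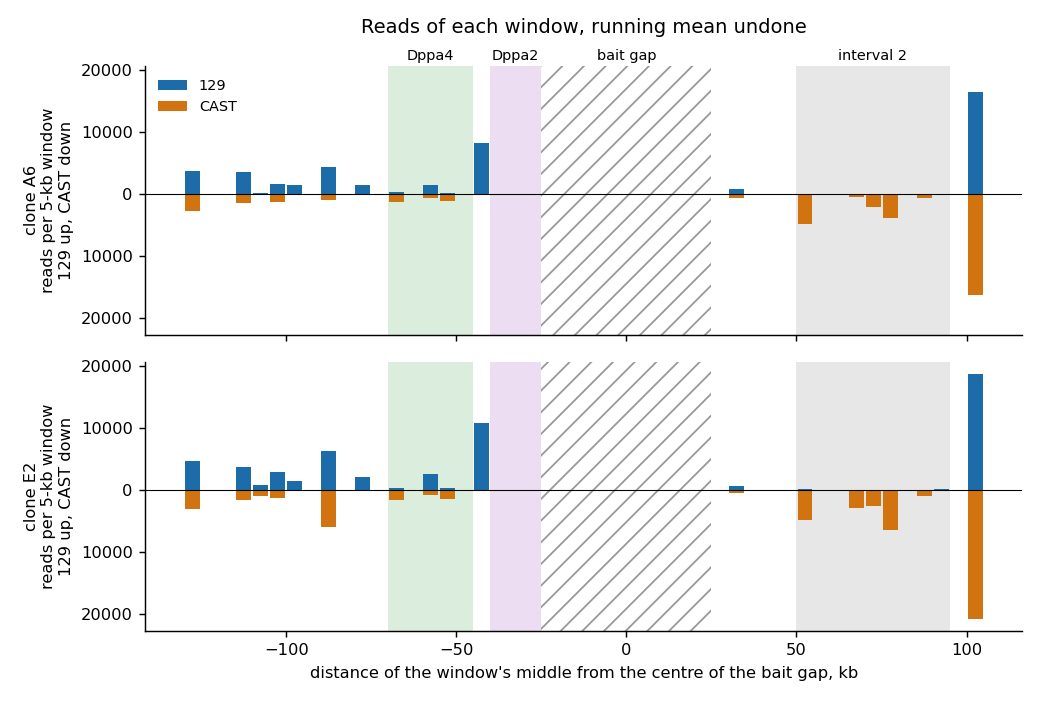
Recovered reads of each 5-kb window (y axis, 129 upward in blue and CAST downward in orange) by distance from the centre of the bait gap (kb, x axis), in clone A6 (top) and E2 (bottom). Dppa2 is empty at this scale, the window between the genes is read on 129, and interval 2 is read on CAST.

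Just outside the windows of both genes lay the window from 48300001 to 48305000, which holds the highest 129 count within 100 kb upstream of the gap. There, A6 gave 8209 reads of 129 against 7 of CAST, and E2 gave 10752 against 14. The share of 129 was thus 99.9% in both clones, with a lower Wilson 95% limit of 99.8% in both. Windows read on nearly 1 allele alone were common: of the chromosome 16 windows with at least 100 reads, 33.7% in A6 and 35.5% in E2 had over 99% of their reads on 129. Another 16.0% and 18.0% had over 99% on CAST. What makes a window read on 1 allele was not tested. With 25 kb on each side, which takes in this window, the own-read ratio of Dppa4 was 0.90 ± 0.55 and that of Dppa2 was 1.84 ± 0.10 (SD, n = 2).

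The deposited values of both genes could be traced to the windows that supply them. For Dppa2 these reach from 48230001 to 48440000, across the gap and over the 9 windows of the second labelled interval (48396806 to 48437301). For Dppa4 they reach from 48200001 to 48420000 and take in 5 windows of that interval. On CAST, interval 2 supplied 59.9% ± 4.0 (SD, n = 2) of the value of Dppa2 and 30.9% ± 4.9 of that of Dppa4. On 129 it supplied 0.12% ± 0.084 and 0.0574% ± 0.072. The window between the genes supplied 38.6% ± 1.3 of the 129 value of Dppa2 and 30.9% ± 0.46 of that of Dppa4, against 0.0407% and 0.0510% on CAST. Windows of Dppa2 itself supplied 0.00241% of its 129 value and 0.00523% of its CAST value. Windows of Dppa4 supplied 7.71% ± 0.80 of its 129 value and 18.8% ± 2.6 of its CAST value. They also supplied 9.63% ± 0.81 of the 129 value of Dppa2 and 15.2% ± 3.0 of its CAST value. Windows upstream of Dppa4 supplied 59.2% ± 0.57 on 129 and 47.0% ± 9.0 on CAST for Dppa4, and 48.9% ± 1.7 and 22.3% ± 8.3 for Dppa2. The first windows after the gap supplied 2.19 to 3.17%.

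**Figure D3:**
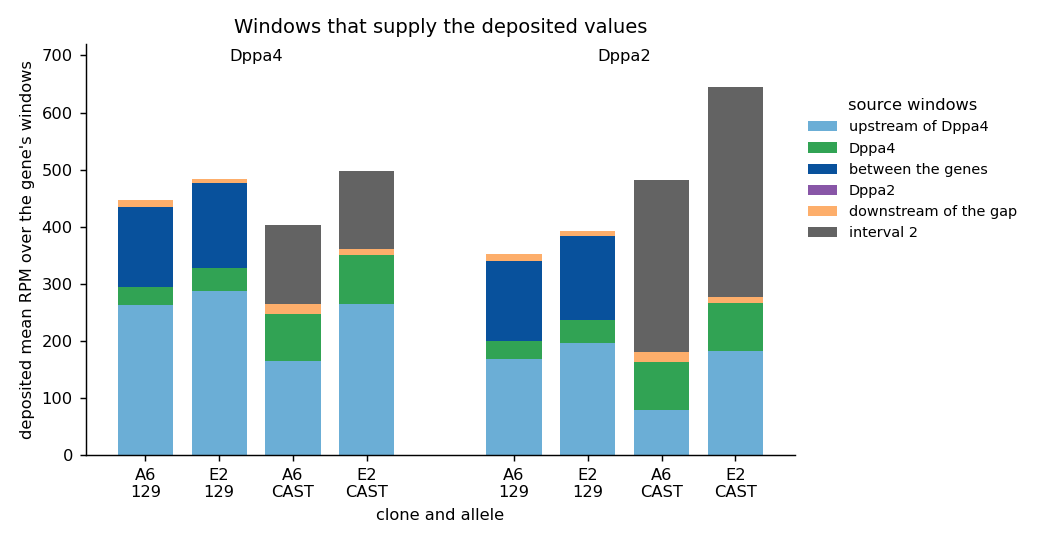
Deposited mean RPM over the windows of Dppa4 (left) and Dppa2 (right) in each clone and allele, stacked by the windows that supply it. Interval 2 supplies CAST values and the window between the genes supplies 129 values, while the windows of Dppa2 add too little to be seen.

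Expressed in RPM, these parts show what separates the alleles at each gene. At Dppa2, interval 2 supplied 302 RPM on CAST in A6 and 368 in E2, against 0.215 and 0.706 on 129. The window between the genes supplied 140 RPM on 129 in A6 and 148 in E2, against 0.177 and 0.289 on CAST. The whole 129 minus CAST difference at Dppa2 was -130 RPM in A6 and -253 in E2, smaller in size than the part from interval 2 in both clones. At Dppa4 the part from interval 2, -139 RPM in A6 and -136 in E2, was close in size to the part from the window between the genes, 139 and 148. The clones of Dppa4 parted in the upstream windows, which supplied 164 RPM on CAST in A6 and 265 in E2, against 263 and 288 on 129. A single window, from 48255001 to 48260000, held 1056 CAST reads in A6 and 6041 in E2, with 4332 and 6192 on 129.

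Recomputing the running mean without single groups of windows moved the allele ratio of both genes. Without the 9 windows of interval 2, chosen as a setting after the reads were seen, the ratio of Dppa2 was 0.05 ± 0.01 (SD, n = 2; limma adjusted p = 0.97) in place of -0.58. The mean then reaches to 48485000 and takes in a window from 48445001 that gave 16326 reads of 129 against 16297 of CAST in A6 and 18669 against 20793 in E2. Without the windows of all 3 intervals the ratio of Dppa2 was 0.08 ± 0.02 (adjusted p = 0.95), from the 1 window that the first interval leaves. The ratio of Dppa4 was 0.02 ± 0.20 and -0.02 ± 0.16 in the same settings. Without the window between the genes, also chosen after the reads were seen, Dppa2 was at -1.21 ± 0.17 (adjusted p = 0.14) and Dppa4 at -0.61 ± 0.14 (adjusted p = 0.52). CAST was then higher in both clones at both genes. That window was read almost only on 129, so the shift towards CAST was set by the choice of window. Interval 2 was read almost only on CAST, with 12236 reads against 26 of 129 in A6 and 18179 against 67 in E2. The shift of Dppa2 away from CAST without interval 2, or without all 3 intervals, was thus likewise set by the windows left out and taken in. The ratios of all these settings and their adjusted p-values are therefore not a separate result on the alleles.

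**Figure D4:**
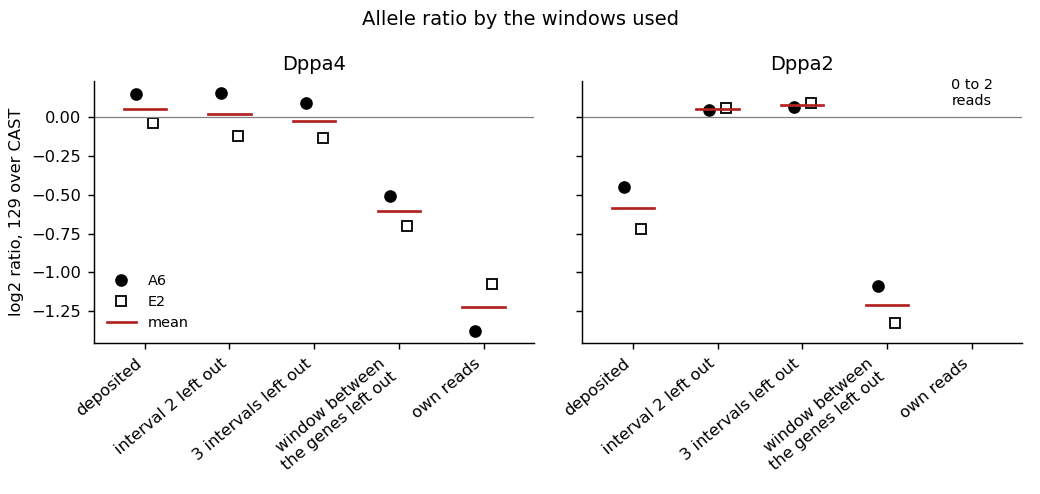
Log2 ratio of 129 over CAST (y axis) for Dppa4 (left) and Dppa2 (right) in clone A6 (filled circles) and clone E2 (open squares), with their mean (red), by the windows used (x axis). For Dppa2 the ratio is near 0 without interval 2 and lowest without the window between the genes, and no ratio is drawn for its 0 to 2 own reads. Interval 2 is read almost only on CAST and the window between the genes almost only on 129.

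As a share of the chromosome 16 signal, the 5 windows of Dppa4 took 0.965% ± 0.037 on 129 and 0.946% ± 0.126 on CAST (SD, n = 2). The 3 windows of Dppa2 took 0.463% ± 0.027 on 129 and 0.711% ± 0.137 on CAST. In own reads Dppa4 took 0.447% ± 0.063 on 129 and 1.06% ± 0.003 on CAST, so its CAST share was within 1 SD of the deposited one while its 129 share was lower. Dppa2 took 0.000107% and 0.000321% in own reads.

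Among the 7 protein-coding genes within 500 kb of the gap, Dppa2 ranked 6 on 129 in both clones but 3 and 2 on CAST, and Dppa4 ranked 4 to 5 in every column. Levels are given as mean RPM per window. On CAST, Dppa2 came after Morc1, a germline gene that silences transposons, at 564 ± 115 against 975 ± 61 (SD, n = 2), and the clones of these genes did not overlap. Its values overlapped those of Trat1, a T-cell receptor adaptor gene, at 535 ± 46. Dppa4 was at 450 ± 66 and overlapped the resistin-like gene Retnlb at 460 ± 39, and both were above Retnla at 337 ± 38. On 129 the order was Morc1 at 568 ± 133, Retnlb at 560 ± 21, Trat1 at 513 ± 21, Retnla at 511 ± 10, Dppa4 at 466 ± 26 and Dppa2 at 373 ± 28. Gm52257, 258 kb upstream of the gap, was last on both alleles, at 338 ± 16 on 129 and 144 ± 23 on CAST. On 129 neither Dppa4 nor Dppa2 overlapped a gene next to it in this order, and Dppa2 was the lowest but for Gm52257. These levels are running means. Gm52257 had 0 own reads in each column, and Dppa2 had 3 over all 4 columns. The place of Dppa2 in the order is thus that of the windows around it, which take in 9 windows of interval 2. None of the 7 genes passed the limma threshold between alleles.

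**Figure D5:**
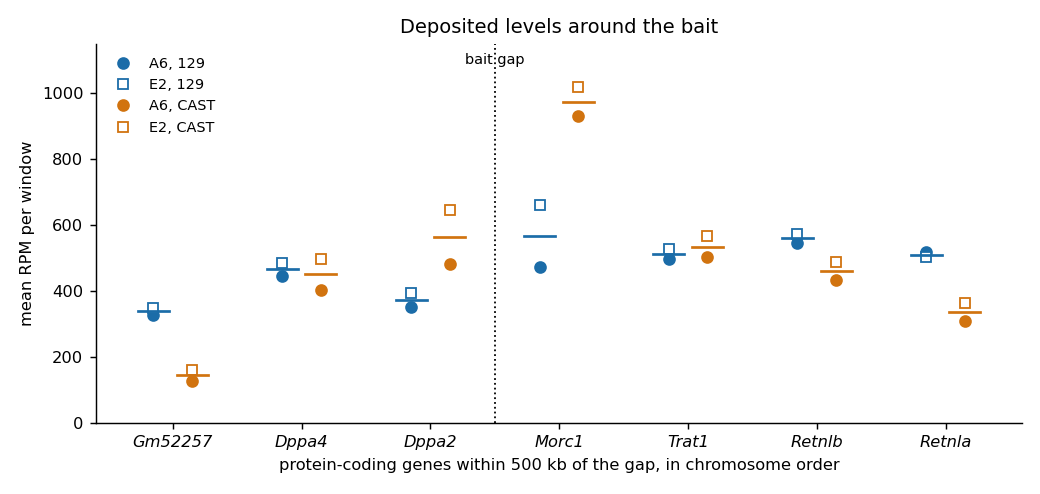
Mean RPM per window (y axis) for the 7 protein-coding genes within 500 kb of the bait gap (x axis, chromosome order), with 129 in blue, CAST in orange, clone A6 filled, clone E2 open and bars at the mean of the clones. Dppa2 and Gm52257 have the lowest 129 values, and Morc1 has the highest CAST values.

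The genes with the most similar pair of allele ratios lay far from the bait and at much lower levels. Likeness was the distance between the log2 ratios of A6 and E2, over 2 clones and 597 other genes. Closest to Dppa2 were Mrpl40, a mitochondrial ribosomal protein gene (distance 0.018), Kalrn (0.089) and Heg1 (0.090), at 5.87 to 9.90 RPM on 129 and 9.02 to 15.1 on CAST. Closest to Dppa4 were the dopamine receptor gene Drd3 (0.044), P3h2 (0.096) and Slc5a3 (0.11), at 7.81 to 9.45 RPM on both alleles.

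Other pluripotency genes, on other chromosomes, were measured in the same way. All 12 genes of the list matched the annotation, and 8 had at least 1 read of their own. Their deposited levels ran from 0 to 9.26 RPM, so all lay far below the 353 to 646 RPM of the running means of Dppa2 and Dppa4. The level of Dppa2 is that of the windows around it, since its own windows held 3 reads over the 4 columns. Of the 12 genes, the most own reads over the 4 columns were 417 at Esrrb and 389 at Nanog, both transcription factor genes of the pluripotency network. Dppa3, a maternal factor gene, had 252. Deposited values were higher on 129 in both clones for 9 of the 12 and higher on CAST in both for 3. The share over all genes of those chromosomes was not computed, and 4 of the 12 had no own reads. No lean of pluripotency genes to 1 allele can be read from these counts. The contacts of the 12 genes are between chromosomes, and most rest on surrounding windows.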

How the data were processed

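4C-seq of the hybrid clones A6 and E2 was analysed, with 1 library each. The authors deposited RPM (reads per 1000000) per allele over 5-kb windows, smoothed, in mm10, per the file headers and name. The labels' protocols give HindIII, then DpnII. Bowtie2 and the builds mm9 and mm10 are named, without versions, per the submitters' processing notes. All values (100%, tolerance 0.01) were whole multiples of 1 read over 30 windows. Undoing the running mean, which takes 15 windows before and 14 after each window across the gap, gave 0 windows below 0. Intervals and limits cover counting error only, as the reads carry no molecular identifiers and 1 molecule can give many.

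Gene positions came from RefSeq (GRCm38.p6, the build of mm10). Gene values are means over windows overlapping the gene and 5 kb on both sides. limma 3.58.1 (R 4.3.3) was fitted to log2(RPM + 1) for protein-coding genes of chromosome 16 with a mean of at least 1 RPM, with clone as block, since both alleles come from 1 library. A log2 change on that scale understates low genes. edgeR 4.0.16 was run on recovered reads of genes with at least 10. Both were run on simulated reads drawn from 1 level per window for all 4 columns, with and without set allele changes. No window was set to be read on 1 allele alone, so these runs do not cover such windows. Other steps used pandas 2.3.3 and numpy 2.4.6 in Python 3.11.15, with scipy 1.17.1 for intervals and matplotlib 3.10.9 for plots. Named beside Dppa2 and Dppa4 are protein-coding genes within 500 kb of the gap, the 3 genes nearest each in allele ratios, and the 3 of 12 pluripotency genes with most reads. Members and lists were chosen with earlier results of these data known. Single windows named are those that supply the values, named after they were seen. Alternatives were the pseudocount, filter, scaling, flanks, running mean, block and each clone left out. The inbred table was not used here.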

Additional observations from a re-analysis of the deposited data

How the results depend on the processing

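Neither gene passed the threshold of limma on deposited values under any pseudocount, filter, flank or scaling tried, or with any windows left out. The ratio of Dppa2 was 0.077 without the windows of the 3 intervals and 0.052 without those of interval 2, and otherwise -0.32 to -1.20. Dppa4, at 0.05, went below 0 with 25 kb flanks (-0.0035), without the 3 intervals (-0.023), without the window between the genes (-0.60), with the running mean undone (-1.23) and in edgeR (-0.88 with TMM, -1.23 with library totals). Leaving out A6 gave -0.72 for Dppa2 and -0.038 for Dppa4, and leaving out E2 gave -0.45 and 0.15, values with no test. The cause of these changes beyond the windows left out was not tested. With no replicate block, limma gave -0.58 for Dppa2 (adjusted p = 0.50) and 0.05 for Dppa4 (adjusted p = 0.96), and 48 calls. The count of 125 called genes (55 higher and 70 lower on 129) was 0 without a filter (145 at an unadjusted p under 0.05) and 0 with 25 kb flanks (193 unadjusted) in limma. Undoing the running mean left 71 in limma, and edgeR called 218 with library totals (117 higher, 101 lower) and 182 with TMM (116 higher, 66 lower). The own-read ratio of Dppa4 was -0.60 without flanks and 0.90 with 25 kb flanks, and -1.38 to -1.07 without 1 clone. Shares of the chromosome 16 signal without flanks were 0.293% and 0.467% for Dppa2 on 129 and CAST and 0.595% and 0.568% for Dppa4. With the running mean undone they were 0.000107% and 0.000321% for Dppa2 and 0.447% on 129 for Dppa4. Without 1 clone the shares ran from 0.444 to 0.482% and 0.614 to 0.807% for Dppa2, and from 0.939 to 0.991% and 0.857 to 1.04% for Dppa4. Dppa2 had too few own reads for edgeR, or for limma with the running mean undone.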
